A study of Rattus norvegicus with 18 samples.

Results

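The genes described here are 41 genes of DNA replication and of the step from G1 into S phase, measured by RNA sequencing of rat renal parenchyma after unilateral ureteral obstruction (UUO), a model in which a ureter is tied and the kidney above it is damaged by the dammed urine. They were taken by gene symbol from a table of 30957 genes, in which each of the 41 had a single row, and all 41 passed the filter on low counts that left 14511 genes for testing. The 18 libraries came from rats whose left ureter was ligated: 5 libraries after 1 day, 5 after 3 days, 5 after 7 days and 3 labelled 14 days. All rats shared the UUO operation under ketamine anaesthesia and no other agent or allele is labelled. The labels give neither strain, age nor sex, and they do not tie each library to its own animal, so p-values here reflect the scatter among libraries, part of which could be technical. A sham-operated group that the design names was not analysed here, so the earliest state described is 1 day of obstruction.

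Before a cell can copy its DNA, the origin recognition complex with Cdc6 and Cdt1 loads the ring of Mcm2 to Mcm7 onto origins in G1. At the start of S phase Cdc45 and the GINS complex join the ring to make the active helicase, and polymerases, the Pcna clamp and its Rfc loader follow it. Most of these genes are known to be switched on together by E2F transcription factors once cyclin-dependent kinases inactivate the retinoblastoma protein. In the obstructed kidney, tubular cells, interstitial fibroblasts and infiltrating leukocytes are all known to enter the cell cycle. The data are from whole tissue, so more cells of a type in cycle and more RNA of these genes per cell cannot be told apart.

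The promoter windows of these genes are shown first because some of them carry a word that is rare in the windows of all tested genes. E2F factors bind words such as TTTCCCGC, TTTGGCGC, TTTGCCGC and TTTCGCGC, and these were searched on both strands of the RefSeq promoter windows (build GRCr8), which run from 250 bases before to 50 bases after each annotated start. Of the 41 genes, 33 were matched to a window, and Mcm4, Cdc6, Rrm2, Ccne2, E2f1, E2f2, E2f8 and Orc1 were not. An E2F word stood in 16 of the 33, or 48.5%, against 3.9% of the 10076 tested genes with a window and 2.37% of all 27457 genes in the promoter table. The 150 bases before the start are printed below, 5′ to 3′ on the strand of the gene, for 5 genes with an E2F word, for 2 of the genes whose RNA rose after day 1 and that have none in these bases, and for Cdk1 and Mki67, mitotic genes used for contrast. Capitals mark an E2F word or, in Cdk1 and Mki67, also the word TTTGAA.
Mcm2 (chr4:122918095-122918244, minus strand): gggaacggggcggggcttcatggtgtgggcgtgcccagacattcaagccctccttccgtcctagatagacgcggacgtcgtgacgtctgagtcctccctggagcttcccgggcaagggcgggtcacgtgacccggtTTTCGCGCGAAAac
Mcm5 (chr19:13488663-13488812, plus strand): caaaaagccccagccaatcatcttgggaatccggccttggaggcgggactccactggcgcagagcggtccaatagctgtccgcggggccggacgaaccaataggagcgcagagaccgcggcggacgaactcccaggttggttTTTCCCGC
Mcm6 (chr13:42404353-42404502, minus strand): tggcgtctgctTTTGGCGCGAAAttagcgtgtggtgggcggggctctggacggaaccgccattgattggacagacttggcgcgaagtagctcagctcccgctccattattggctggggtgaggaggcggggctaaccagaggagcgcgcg
Mcm7 (chr12:22163179-22163328, minus strand): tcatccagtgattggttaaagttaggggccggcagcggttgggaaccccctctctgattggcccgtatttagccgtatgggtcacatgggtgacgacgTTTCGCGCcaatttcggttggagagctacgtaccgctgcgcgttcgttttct
Gins1 (chr3:160184770-160184919, plus strand): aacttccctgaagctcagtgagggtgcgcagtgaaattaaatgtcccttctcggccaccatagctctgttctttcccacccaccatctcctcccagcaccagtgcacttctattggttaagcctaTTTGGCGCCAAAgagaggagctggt
Tk1 (chr10:103544778-103544927, minus strand): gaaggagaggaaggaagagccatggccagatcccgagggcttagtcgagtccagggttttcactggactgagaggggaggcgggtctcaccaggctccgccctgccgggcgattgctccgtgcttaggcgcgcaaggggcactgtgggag
Cdc45 (chr11:95690028-95690177, plus strand): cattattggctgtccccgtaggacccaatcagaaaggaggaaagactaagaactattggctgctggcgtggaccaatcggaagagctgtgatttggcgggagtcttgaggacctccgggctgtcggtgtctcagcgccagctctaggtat
Cdk1 (chr20:19265143-19265292, plus strand): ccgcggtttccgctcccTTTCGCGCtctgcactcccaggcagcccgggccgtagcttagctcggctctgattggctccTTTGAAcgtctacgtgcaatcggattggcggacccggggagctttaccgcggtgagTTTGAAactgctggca
Mki67 (chr1:199952594-199952743, minus strand): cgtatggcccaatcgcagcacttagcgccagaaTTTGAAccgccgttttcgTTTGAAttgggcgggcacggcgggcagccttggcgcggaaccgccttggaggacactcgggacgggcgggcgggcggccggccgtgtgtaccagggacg
In Mcm2, Mcm6 and Gins1 the marked run holds overlapping words on opposite strands, so the letters of a single stretch count for both. The word of Mcm5 ended at the last base before the annotated start, and that of Mcm7 lay between 52 and 45 bases before it. Cdk1 had 1 E2F word and 2 copies of TTTGAA, the core of the cell cycle genes homology region known from late cell cycle promoters, and Mki67 had 2 copies of TTTGAA. Tk1 and Cdc45 show no marked letters, which says only that these 4 words are not in this stretch. A match is a description of letters and not evidence of binding.

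Neighbouring gene lists held the same words in other shares. An E2F word was in 41.5% of 41 other replication factors with a window, 19.0% of 21 other G1/S regulators, 10.0% of 20 genes of replication stress and recombination repair and 4.17% of 24 genes of mitosis and the spindle. The word TTTGAA was in 12.1% of the 33 replication and G1/S genes, close to the 12.5% of all tested genes. It was in 26.8% of the other replication factors, 28.6% of the other G1/S regulators, 20% of the repair genes and 70.8% of the mitotic genes. The genes and lists are not random draws of genes, and no test was made of these shares.

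**Figure D1:**
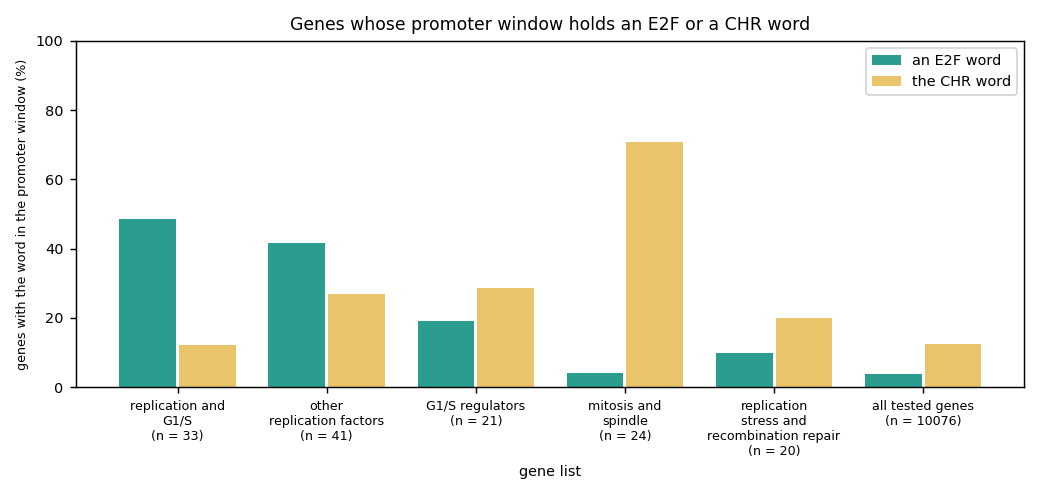
Share of genes in each list (vertical axis, %) whose promoter window holds at least 1 of the 4 E2F words (left bar of each pair) or the word TTTGAA (right bar, CHR), with the number of genes that have a window under each name. The replication and G1/S genes stand at 48.5% for E2F words and 12.1% for TTTGAA, while the mitotic genes stand at 4.17% and 70.8%.

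Libraries held 5488540 to 12049915 counts. The 3 libraries labelled 14 days stood apart from the other 15: their summed FPKM (fragments counted relative to gene length and library size) of 11 injured tubule markers was 671 to 1710, against 9030 to 22800 in the others, and mitochondrial genes took 14.4 to 27.4% of their counts, against 7.11 to 13.6%. Their summed adipocyte markers were 247, 46.1 and 2460 FPKM, and their proximal tubule markers 535, 6760 and 524 FPKM, so they also differed among themselves. The fall in the injured tubule sum was not shared by all of its genes. Against 7 days 5 of the 11 were called lower in edgeR's test, described below. The median log2 fold change of the 11 was -0.81, and 3 were positive. Monocyte and macrophage markers summed to 390 to 814 FPKM at 1 day, 816 to 1480 at 3 days, 987 to 4460 at 7 days and 123 to 426 in the libraries labelled 14 days, where Cd3d, Cd5 and Gzmb, T and NK cell genes, were at 0 in all 3. Results for days 1, 3 and 7 are therefore also given from a fit without these 3 libraries, and library 5 of day 1, whose adipocyte markers summed to 158 FPKM against 15.4 to 28.5 FPKM in the other libraries of days 1 and 3, was left out in a further fit.

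Seen as a group, the 41 genes were more abundant at 3 and 7 days than at 1 day and least abundant in the libraries labelled 14 days, as a description of summed levels without a test. Their summed level was 289 to 371 FPKM at 1 day, 380 to 487 FPKM at 3 days, 367 to 529 FPKM at 7 days and 200 to 254 FPKM in the libraries labelled 14 days. The 3-day sums lay above all 1-day sums. The 7-day sums spanned the whole 3-day range and overlapped the 1-day sums at their lower end. The sums labelled 14 days lay below all others. Of the 41 gene means, 19 were highest at 3 days and 21 at 7 days among the first 3 times, with Lig1 alone highest at 1 day, and 37 were lowest of all in the libraries labelled 14 days. These ranks use FPKM as deposited, and the shares of all tested genes with such ranks were not counted. On the FPKM scale all tested genes had a median log2 difference from 7 days of -0.26 or -0.32 (pseudocount 1 or 0.1). Pcna was among the 37, though its fitted log2 fold change against 7 days was -0.04. Across the genes, the means spanned 0.63 to 52.0 FPKM at 1 day, with 9 genes at 10 FPKM or more, against 17 genes at 3 days, 16 at 7 days and 5 in the libraries labelled 14 days. The median gene stood at 5.2, 6.89, 7.11 and 3.43 FPKM in that order of times, below the median of all tested genes, which was 9.67 to 10.8 FPKM.

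Pcna, the sliding clamp that holds polymerases on DNA, was the most abundant of the set at every time, with 55.4, 50.1, 46.5, 59.4 and 48.5 FPKM at 1 day, 62, 66, 48.5, 67.8 and 56.7 FPKM at 3 days, 67.9, 69, 48.2, 56.5 and 48.5 FPKM at 7 days and 48.2, 30.8 and 60.7 FPKM in the libraries labelled 14 days. Its libraries overlapped between all neighbouring times. Next after Pcna at 1 day came Mcm7 at 24.4 ± 3.62 FPKM and Ung, the uracil-DNA glycosylase, at 19.4 ± 4.68 FPKM (mean ± SD, n = 5), whose libraries overlapped with each other. The scarcest were E2f8, a repressor among the E2F factors, at 0.63 ± 0.505 FPKM, and Orc1 at 0.677 ± 0.339 FPKM at 1 day (SD, n = 5). In counts, E2f8 had 1 to 30 reads per library at 1 day and 0, 3 and 1 in the libraries labelled 14 days, so fold changes of the scarce genes rest on few reads.

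**Figure D2:**
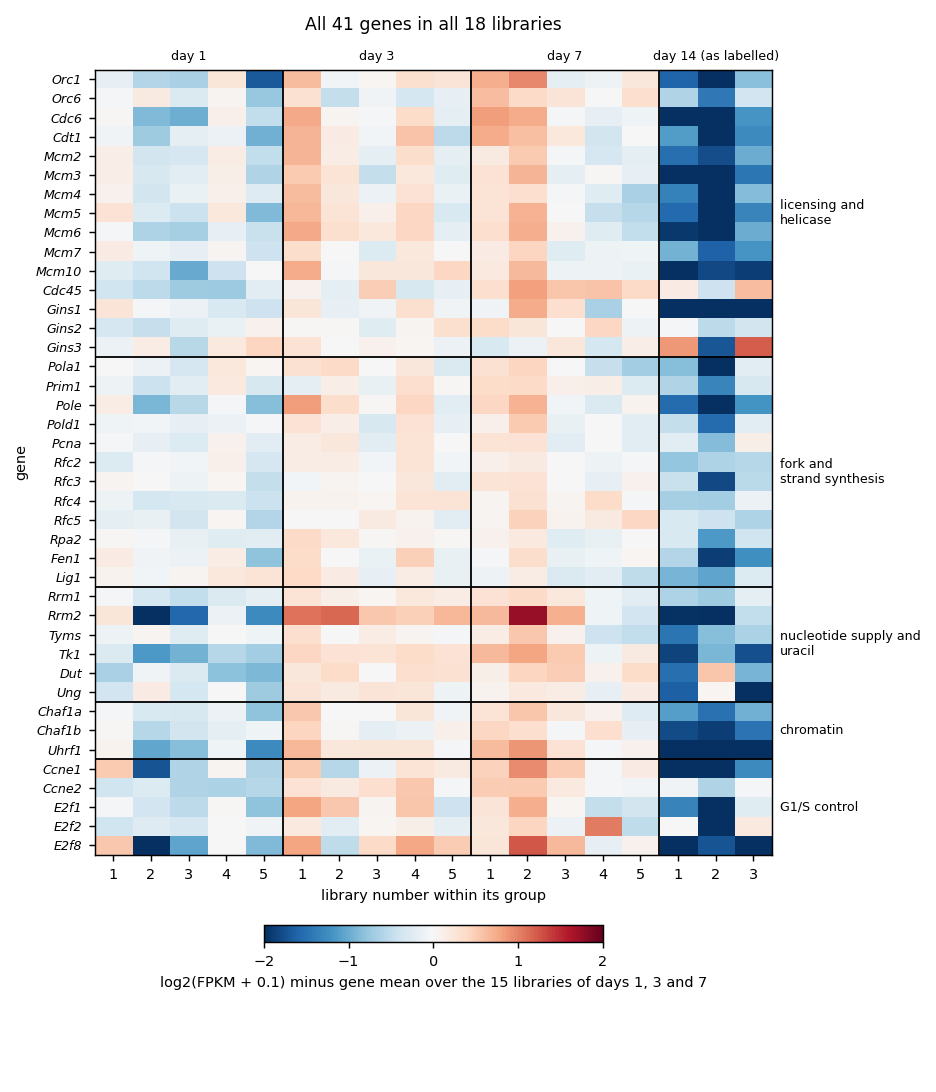
Each row is 1 of the 41 genes, grouped by role, and each column 1 of the 18 libraries; colour gives log2(FPKM + 0.1) minus the mean of that gene over the 15 libraries of days 1, 3 and 7, from blue (lower) to red (higher), limited to 2 in each direction. Library 1 of day 3 and library 2 of day 7 are red in most rows, and the 3 libraries labelled 14 days are blue in most rows, with Cdc45, Gins3 and Dut among the exceptions.

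The first comparison asks what changed between 1 and 3 days of obstruction. A gene was called changed when its Benjamini-Hochberg adjusted p in edgeR's quasi-likelihood test, over all 14511 tested genes, was under 0.05. At 3 days 2 of the 41 genes were called higher than at 1 day and 0 lower, against a background of 1.16% of all tested genes called higher and 1.12% called lower. The log2 fold changes were positive for 38 of 41 genes with a median of 0.33, against a median of -0.01 over all tested genes. For 7 genes every 3-day library lay above every 1-day library, a pattern found in 4.98% of all tested genes. For 0 genes every 3-day library lay below, compared with 3.06% of tested genes. Of the 41, 14 had an unadjusted p under 0.05 in edgeR, against 2624 of all 14511 tested genes.

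Tk1, the thymidine kinase that salvages thymidine for DNA synthesis, rose (chromosome 10, 106817601 to 106828884, minus strand, positions as deposited, without a named build). It stood at 20.8, 19, 18.9, 20.1 and 19 FPKM at 3 days and 12.7, 7.01, 8.07, 10.5 and 9.6 FPKM at 1 day. The 3-day libraries were tightly grouped and all lay above the 1-day ones. The log2 fold change was 1.02 ± 0.23 (SE, adjusted p = 0.0353 in edgeR). The call was lost in 8 of 18 fits that left out 1 library (libraries 2, 3 and 4 of day 1 and each library of day 3), with adjusted p up to 0.0968, while the fold stayed between 0.95 and 1.14 on the log2 scale. Ccne2, cyclin E2, which activates Cdk2 at the G1/S boundary, also rose (chromosome 5, 24434872 to 24446406, plus strand). It stood at 4.99, 4.6, 5.13, 5.96 and 3.95 FPKM at 3 days and 3.07, 3.33, 2.65, 2.59 and 2.71 FPKM at 1 day. Again no 3-day library overlapped a 1-day library. The log2 fold change was 0.76 ± 0.15 (SE, adjusted p = 0.0135 in edgeR), and the call held in all 18 fits that left out 1 library, with adjusted p up to 0.0475.

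In the fit without the libraries labelled 14 days, 6 of 41 genes were called higher at 3 days than at 1 day and 0 lower, against 5.27% and 5.18% of the 13991 genes then tested. These were Tk1 and Ccne2 with Mcm10 at a log2 fold change of 0.74 ± 0.21 (SE, adjusted p = 0.0369 in edgeR), Rfc4 at 0.42 ± 0.11 (SE, adjusted p = 0.0308 in edgeR), Rrm1 at 0.4 ± 0.11 (SE, adjusted p = 0.0316 in edgeR) and Dut at 0.74 ± 0.16 (SE, adjusted p = 0.0114 in edgeR). With library 5 of day 1 left out as well, 7 of 41 were called higher and 0 lower, against 1011 and 1005 of the 14081 genes then tested. Mcm10 helps to start the helicase, Rfc4 is a subunit of the clamp loader, Rrm1 is the large subunit of ribonucleotide reductase and Dut hydrolyses dUTP. In the fit of all libraries none of these 4 passed, with adjusted p of 0.125 for Mcm10, 0.076 for Rfc4, 0.0666 for Rrm1 and 0.251 for Dut in edgeR's test.

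Between 7 and 3 days 0 of 41 genes were called in either direction by edgeR, against 0.717% of all tested genes called higher and 0.331% called lower, and DESeq2 also called 0. Of the 41, 2 had an unadjusted p under 0.05 in edgeR, against 2726 of all 14511 tested genes. The median log2 fold change of the 41 was -0.06. Without the libraries labelled 14 days the count was again 0, against 4.75% of tested genes called higher and 3.17% lower. The 2 groups were separate in 0 of the 41 genes, compared with 6.99% of tested genes wholly higher and 1.32% wholly lower at 7 days. The p that misses the threshold does not show equal levels: the largest differences were those of Cdc45, with a log2 fold change of 0.46 (95% interval 0.1 to 0.83), Orc6 at 0.40 (-0.05 to 0.85), Lig1 at -0.34 (-0.64 to -0.05) and E2f1 at -0.33 (-1.03 to 0.37).

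Set against 1 day, 6 of 41 genes were called higher at 7 days and 0 lower by edgeR, with a median log2 fold change of 0.35. This is 14.6% of the 41, near the 12.3% of all tested genes called higher in the same comparison, while 13.3% were called lower, so the count alone is not a result about these genes. The same holds for groups without overlap, in which 6 genes were wholly higher at 7 days, against 14.3% of tested genes, and 0 wholly lower, against 6.9%. Without the libraries labelled 14 days 10 of 41 were called higher and 1 lower, against 18% and 20.2% of tested genes. The lower one was Lig1, the ligase that joins lagging-strand fragments, at a log2 fold change of -0.38 ± 0.13 (SE, adjusted p = 0.0326 in edgeR). When library 5 of day 1 was left out as well, 7 of 41 were called higher and 0 lower. Of the 14081 genes then tested 2925 were called higher and 2916 lower.

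Cdc45, the helicase activator, had the smallest p of the set at 7 days against 1 day (chromosome 11, 86329012 to 86358453, plus strand). It stood at 2.81, 2.59, 2.26, 2.22 and 3.21 FPKM at 1 day, 3.99, 3.31, 5.34, 2.98 and 3.34 at 3 days and 4.74, 6.7, 5.55, 5.61 and 4.93 at 7 days. Every 7-day library lay above every 1-day library, and the 3-day libraries lay between or overlapped both. The log2 fold change of 7 against 1 day was 0.99 ± 0.17 (SE, adjusted p = 0.00101 in edgeR). Tk1 and Ccne2 were also higher at 7 days than at 1 day, with 24.6, 26.9, 22.4, 14.5 and 17.7 FPKM of Tk1 and 5.81, 5.87, 4.64, 4 and 3.92 FPKM of Ccne2 at 7 days, none of which overlapped the 1-day values above. Their log2 fold changes were 1.07 ± 0.23 (SE, adjusted p = 0.0036 in edgeR) for Tk1 and 0.67 ± 0.15 (SE, adjusted p = 0.00365 in edgeR) for Ccne2. The calls of these 3 genes held in all 18 fits that left out 1 library.

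The other 3 calls at 7 against 1 day were smaller or less stable. Uhrf1, which reads hemimethylated DNA behind the fork and recruits the maintenance methyltransferase, stood at 5.4, 6.47, 4.24, 3.39 and 3.69 FPKM at 7 days, against 3.63, 1.64, 1.88, 3.26 and 1.37 FPKM at 1 day. Its log2 fold change was 0.9 ± 0.3 (SE, adjusted p = 0.0383 in edgeR), and the call was lost in 7 of 18 fits that left out 1 library (libraries 2, 3 and 5 of day 1, 3 of day 3, and 1, 2 and 3 of day 7), with adjusted p up to 0.0963. The upper 1-day libraries of Uhrf1 overlapped the lower 7-day ones. Rfc4 stood at 9.2, 11, 9.24, 11.5 and 8.6 FPKM at 7 days, against 8.26, 6.93, 7.18, 7.24 and 6.52 FPKM at 1 day, without overlap, at a log2 fold change of 0.37 ± 0.12 (SE, adjusted p = 0.0334 in edgeR). That call was lost in 5 of 18 such fits (without libraries 3, 4 or 5 of day 1, or 2 or 4 of day 7), with adjusted p up to 0.089. Rrm1 stood at 26.6, 28.4, 25.1, 20.5 and 18.6 FPKM at 7 days, against 21.3, 17.1, 15.5, 17.8 and 19 FPKM at 1 day, with overlap, at a log2 fold change of 0.31 ± 0.11 (SE, adjusted p = 0.0491 in edgeR). It lost its call in 15 of 18 such fits, all but those without library 1 of day 1 or libraries 4 or 5 of day 7, with adjusted p up to 0.125.

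**Figure D3:**
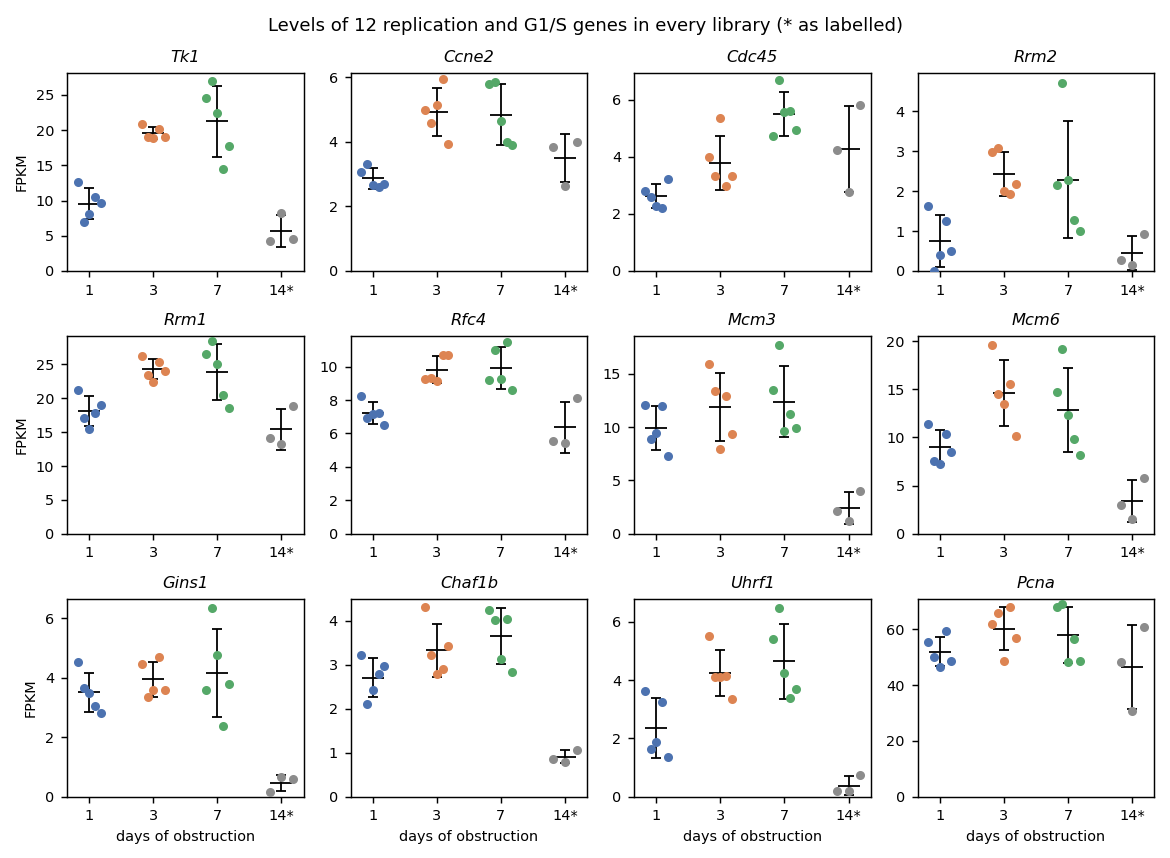
FPKM (vertical axes, from 0) of 12 of the genes in every library (points) at 1, 3, 7 and 14 days of obstruction, the last as labelled, with the mean and SD as horizontal and vertical bars. Tk1, Ccne2 and Cdc45 are higher at 7 days than at 1 day with no overlap, while Gins1, Chaf1b and Uhrf1 are lowest in the libraries labelled 14 days and Pcna overlaps between all times.

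Among the genes not called at 3 against 1 day, Rrm2, E2f8, Uhrf1 and Orc1 had fitted changes above that of Ccne2. Dut, Mcm10 and Pole lay just below it. The log2 fold change was 0.83 ± 0.3 (SE, adjusted p = 0.155 in edgeR) for Uhrf1 and 0.78 ± 0.37 (SE, adjusted p = 0.276 in edgeR) for Orc1. For Mcm10 it was 0.74 ± 0.25 (SE, adjusted p = 0.125 in edgeR) and for Pole 0.72 ± 0.27 (SE, adjusted p = 0.175 in edgeR). Rrm2 is the small subunit of ribonucleotide reductase that sets the enzyme's S-phase activity. It stood at 2.97, 3.09, 2.01, 1.92 and 2.19 FPKM at 3 days, against 1.62, 0, 0.389, 1.24 and 0.499 FPKM at 1 day. All 3-day libraries lay above all 1-day ones, but the 1-day values rest on 0 to 16 reads. The log2 fold change was 1.68 ± 0.56 (SE, adjusted p = 0.127 in edgeR). E2f8 had 1.64, 0.606, 1.21, 1.61 and 1.32 FPKM at 3 days, against 1.36, 0.065, 0.382, 0.9 and 0.445 FPKM at 1 day, with overlap and a log2 fold change of 1 ± 0.53 (SE, adjusted p = 0.33 in edgeR). Dut stood at 16.8, 25.1, 21.6, 15 and 14.2 FPKM at 1 day, 30.9, 34.3, 26.6, 33.3 and 32.9 at 3 days and 28.6, 35.9, 37.4, 28 and 34.3 at 7 days. Both later groups lay wholly above the 1-day libraries, at log2 fold changes of 0.74 ± 0.33 (SE, adjusted p = 0.251 in edgeR) at 3 days and 0.74 ± 0.33 (SE, adjusted p = 0.116 in edgeR) at 7 days.

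The last interval asks what changed after 7 days. In the libraries labelled 14 days 24 of 41 genes were called lower than at 7 days and 0 higher, against 16.9% of all tested genes called lower and 21.4% called higher in edgeR's test. The median log2 fold change was -0.91, against 0.07 over all tested genes, and 40 of 41 were negative. In 28 genes all 3 libraries labelled 14 days lay below all 5 of day 7, compared with 26.6% of tested genes on the FPKM scale, and in 0 they lay above, compared with 2.93%. On that scale the median of all tested genes itself had a log2 difference of -0.26 or -0.32 (pseudocount 1 or 0.1), whereas the fitted fold changes use TMM scaling. These 3 libraries are the ones that stand apart in tubule, adipocyte and mitochondrial values. Called lower in the same comparison were 13 of 16 monocyte and macrophage markers and 10 of 13 tested T and NK cell markers. Called higher were 8 of 8 tested adipocyte, 5 of 6 tested urothelium and 5 of 9 endothelium markers, with 0 lower in each list. Of 18 proximal tubule markers 2 were higher and 6 lower, and of 10 tested fibroblast markers 1 was higher and 4 lower. The part of this difference in tissue in the change of the replication genes was not tested.

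Of the licensing and helicase genes 12 of 15 were called lower, with a median log2 fold change of -1.65. Mcm2 to Mcm7, the 6 subunits of the helicase ring, all fell. Mcm2 stood at 18.8, 13.2, 13.5, 18.9 and 12.1 FPKM at 1 day, 27.4, 18.9, 14.9, 21.9 and 15 at 3 days, 19.4, 24.6, 16.6, 13.5 and 14.9 at 7 days and 5.92, 4.91 and 8.52 in the libraries labelled 14 days. Mcm3 stood at 12.1, 8.86, 9.4, 12 and 7.26 FPKM at 1 day, 15.9, 13.4, 7.94, 12.9 and 9.39 at 3 days, 13.5, 17.7, 9.63, 11.2 and 9.89 at 7 days and 2.09, 1.15 and 4.02 in the libraries labelled 14 days. For both, the 3 libraries labelled 14 days lay below all 15 others. The log2 fold changes against 7 days were -1.17 ± 0.23 (SE, adjusted p = 0.00104 in edgeR) for Mcm2 and -2.09 ± 0.3 (SE, adjusted p = 0.000121 in edgeR) for Mcm3.

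Mcm4 had 10.9, 7.93, 9.3, 11 and 8.57 FPKM at 1 day, 15.9, 11.9, 9.38, 12.5 and 9.32 at 3 days, 12.3, 12.9, 9.89, 8.59 and 6.45 at 7 days and 3.95, 2.5 and 5.58 in the libraries labelled 14 days. Mcm5 had 10.8, 7.25, 6.5, 10.2 and 4.73 FPKM at 1 day, 14, 10.6, 9.41, 11.8 and 7.11 at 3 days, 10.6, 14.3, 8.74, 6.38 and 5.91 at 7 days and 2.92, 0.745 and 3.46 in the libraries labelled 14 days. These again did not overlap with any earlier library. The log2 fold changes against 7 days were -1.04 ± 0.22 (SE, adjusted p = 0.00188 in edgeR) for Mcm4 and -1.7 ± 0.38 (SE, adjusted p = 0.00292 in edgeR) for Mcm5. Mcm6 had 11.4, 7.5, 7.26, 10.3 and 8.5 FPKM at 1 day, 19.6, 14.5, 13.5, 15.5 and 10.1 at 3 days, 14.7, 19.2, 12.3, 9.78 and 8.19 at 7 days and 2.96, 1.52 and 5.8 in the libraries labelled 14 days. Mcm7 had 28.7, 24.2, 23, 26.7 and 19.3 FPKM at 1 day, 32.9, 25.7, 21.3, 29.9 and 25.5 at 3 days, 28.9, 34.5, 21.8, 23.9 and 24.3 at 7 days and 13.3, 8.3 and 11.3 in the libraries labelled 14 days. The low group was again separate from all other libraries in both genes. The log2 fold changes against 7 days were -1.65 ± 0.32 (SE, adjusted p = 0.000942 in edgeR) for Mcm6 and -0.98 ± 0.17 (SE, adjusted p = 0.000374 in edgeR) for Mcm7.

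The 6 ring subunits, which assemble in equal number, were not equally abundant as RNA. Mcm7 was the highest in all 18 libraries. Mcm5 was the lowest in 15 of them, with Mcm3 lowest in library 3 of day 3 and in library 1 labelled 14 days and Mcm4 lowest in library 2 of day 7. The highest subunit had 2.35 to 4.11 times the FPKM of the lowest in the 15 libraries of days 1 to 7, and 3.27 to 11.1 times in the libraries labelled 14 days, where the lowest value was the 0.745 FPKM of Mcm5 in library 2. The sum over the ring was 19.1 to 38.7 FPKM in the libraries labelled 14 days, against 60.4 to 126 FPKM in the other 15.

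The loaders and starters of the helicase were also called lower. Orc1, of the origin recognition complex, had 0.84, 0.602, 0.572, 1.14 and 0.229 FPKM at 1 day, 1.53, 0.908, 0.977, 1.21 and 1.16 at 3 days, 1.64, 1.94, 0.83, 0.877 and 1.13 at 7 days and 0.246, 0.0696 and 0.486 in the libraries labelled 14 days. Orc6 of the same complex had 3.31, 3.84, 2.72, 3.49 and 1.94 FPKM at 1 day, 4.17, 2.4, 3.21, 2.61 and 2.98 at 3 days, 5.23, 4.43, 4.06, 3.36 and 4.26 at 7 days and 2.18, 1.18 and 2.57 in the libraries labelled 14 days. Both were separate from 7 days but overlapped earlier libraries. Their log2 fold changes against 7 days were -1.95 ± 0.5 (SE, adjusted p = 0.00646 in edgeR) for Orc1 and -0.83 ± 0.26 (SE, adjusted p = 0.0195 in edgeR) for Orc6. The call of Orc6 was lost without library 2 of those labelled 14 days, at an adjusted p of 0.0696.

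Cdc6, a loader of the ring, had 1.39, 0.694, 0.649, 1.48 and 0.942 FPKM at 1 day, 2.4, 1.43, 1.34, 1.79 and 1.18 at 3 days, 2.54, 2.37, 1.33, 1.21 and 1.29 at 7 days and 0.12, 0.0451 and 0.551 in the libraries labelled 14 days. Cdt1, its partner, had 4.42, 2.82, 4.12, 4.31 and 2.35 FPKM at 1 day, 7.49, 5.24, 4.46, 6.98 and 3.22 at 3 days, 7.86, 7.09, 5.38, 3.6 and 4.69 at 7 days and 2.1, 0.238 and 1.87 in the libraries labelled 14 days. In both, the group labelled 14 days lay below every other library. Fitted log2 changes against 7 days were -2.58 ± 0.51 (SE, adjusted p = 0.00121 in edgeR) for Cdc6 and -1.77 ± 0.43 (SE, adjusted p = 0.00459 in edgeR) for Cdt1. Library 3 of those labelled 14 days held 14 of the 18 reads of Cdc6 in that group, and without it the log2 fold change was -3.93.

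Mcm10 had 1.56, 1.39, 0.869, 1.37 and 1.84 FPKM at 1 day, 3.18, 1.81, 2.2, 2.18 and 2.5 at 3 days, 2.13, 2.97, 1.73, 1.72 and 1.68 at 7 days and 0.187, 0.458 and 0.431 in the libraries labelled 14 days. Gins1 had 4.54, 3.65, 3.48, 3.05 and 2.81 FPKM at 1 day, 4.47, 3.36, 3.6, 4.71 and 3.58 at 3 days, 3.6, 6.35, 4.76, 2.36 and 3.78 at 7 days and 0.146, 0.66 and 0.576 in the libraries labelled 14 days. Both were far below all earlier libraries, but on few reads, 6, 13 and 14 for Mcm10 and 1, 4 and 4 for Gins1. Their log2 fold changes against 7 days were -2.17 ± 0.34 (SE, adjusted p = 0.000198 in edgeR) for Mcm10 and -2.84 ± 0.42 (SE, adjusted p = 0.000141 in edgeR) for Gins1.

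The 3 exceptions in this role were Cdc45, Gins2 and Gins3, which with Gins1 belong to the active helicase. Cdc45 had 4.22, 2.78 and 5.8 FPKM in the libraries labelled 14 days, overlapping the 7-day values, with a log2 fold change of -0.09 ± 0.2 (SE, adjusted p = 0.756 in edgeR). Gins2 had 7.16, 6.52, 7.64, 8.21 and 9.62 FPKM at 1 day, 9.19, 9.2, 7.61, 9.41 and 11.3 at 3 days, 11.7, 10.7, 9.15, 12.1 and 8.45 at 7 days and 8.8, 6.28 and 7.03 in the libraries labelled 14 days, and a log2 fold change of -0.18 ± 0.14 (SE, adjusted p = 0.336 in edgeR) against 7 days. Gins3 had 4.07, 0.595 and 5.19 FPKM in the libraries labelled 14 days, 2 above and 1 below all of the 1.75, 2.01, 2.57, 1.69 and 2.41 FPKM of 7 days, with a log2 fold change of 0.87 ± 0.37 (SE, adjusted p = 0.0735 in edgeR). Gins1 and Gins3, partners in a complex of fixed composition, therefore had fitted changes of -2.84 and 0.87 in the same libraries. The value of Gins1 rests on 1, 4 and 4 reads in the libraries labelled 14 days, and the difference between the genes was not tested.

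Of the fork and strand synthesis genes 4 of 12 were called lower, with a median log2 fold change of -0.41. Pole is the catalytic subunit of the leading-strand polymerase. It had 2.2, 1.01, 1.32, 1.92 and 1.06 FPKM at 1 day, 3.62, 2.55, 2.01, 2.68 and 1.68 at 3 days, 2.67, 3.28, 1.9, 1.6 and 2.08 at 7 days and 0.619, 0.225 and 0.808 in the libraries labelled 14 days. Fen1 is the nuclease that trims lagging-strand flaps. It had 11.2, 9.44, 9.16, 11.1 and 5.66 FPKM at 1 day, 12.9, 9.88, 9.06, 13.9 and 9 at 3 days, 9.82, 12.7, 8.94, 9.42 and 10.3 at 7 days and 6.58, 2.62 and 4.21 in the libraries labelled 14 days. Both were separate from 7 days, and Fen1 overlapped the 1-day range through its library 1. Against 7 days the log2 fold changes were -1.79 ± 0.35 (SE, adjusted p = 0.00114 in edgeR) for Pole and -0.91 ± 0.25 (SE, adjusted p = 0.00891 in edgeR) for Fen1.

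Prim1, the primase subunit that starts each new strand, had 13.1, 10.4, 12, 16.2 and 11.3 FPKM at 1 day, 12.5, 15.5, 12.7, 17.8 and 14.4 at 3 days, 18.3, 18.4, 15.2, 15.5 and 11.6 at 7 days and 9.25, 5.57 and 11.3 in the libraries labelled 14 days. Rfc3, of the clamp loader, had 12.6, 12.1, 11.4, 12.5 and 8.73 FPKM at 1 day, 11.7, 12.7, 12.2, 14.2 and 10.5 at 3 days, 14.7, 14.9, 12.2, 10.8 and 12.9 at 7 days and 8.95, 3.42 and 8.37 in the libraries labelled 14 days. In each, all 3 values lay below all 5 of day 7. Against 7 days the log2 fold changes were -0.58 ± 0.18 (SE, adjusted p = 0.0171 in edgeR) for Prim1 and -0.65 ± 0.2 (SE, adjusted p = 0.0177 in edgeR) for Rfc3. Without library 2 of those labelled 14 days the adjusted p was 0.074 for Prim1 and 0.0799 for Rfc3, and the log2 fold change of Rfc3 was -0.41.

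The other 8 fork genes were not called against 7 days. Pcna had a log2 fold change of -0.04 ± 0.14 (SE, adjusted p = 0.871 in edgeR). Rfc4 had 9.26, 9.31, 9.14, 10.7 and 10.7 FPKM at 3 days, all above 1 day, and 5.57, 5.41 and 8.13 in the libraries labelled 14 days, all below 7 days. Rpa2, of the single-strand binding protein, had 10.5, 10.2, 9.32, 8.66 and 8.77 FPKM at 1 day, 13.5, 11.9, 10.5, 10.9 and 10.5 at 3 days, 10.9, 11.8, 8.71, 9.34 and 10.4 at 7 days and 8.34, 4.6 and 7.81 in the libraries labelled 14 days. Lig1 had 3.67, 3.36, 3.65, 4.06 and 4.25 FPKM at 1 day, 4.68, 3.94, 3.13, 3.92 and 3.16 at 3 days, 3.27, 3.91, 2.85, 3.03 and 2.44 at 7 days and 1.8, 1.63 and 2.9 in the libraries labelled 14 days. Rpa2 was thus lowest in the last group without overlap, while Lig1 overlapped there through library 3. The fitted log2 fold changes against 7 days of the 8 ran between -0.04 for Pcna and -0.62 for Pola1, the catalytic subunit of polymerase alpha, with Pold1, of polymerase delta, at -0.46 and the clamp loader genes Rfc2 and Rfc5 at -0.36 each.

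Nucleotide supply was mixed, with 3 of 6 called lower. Tk1 had 4.25, 8.26 and 4.55 FPKM in the libraries labelled 14 days, all below the 7-day values, at a log2 fold change of -1.52 ± 0.29 (SE, adjusted p = 0.000901 in edgeR). Tyms is thymidylate synthase. It had 8.87, 9.93, 8.05, 9.52 and 8.93 FPKM at 1 day, 12, 9.47, 10.6, 9.85 and 9.41 at 3 days, 10.6, 13.9, 10.1, 7.12 and 6.75 at 7 days and 3.38, 5.23 and 6.08 in the libraries labelled 14 days. Rrm2 had 0.268, 0.152 and 0.926 FPKM in the libraries labelled 14 days and 2.16, 4.72, 2.28, 1.27 and 1.01 FPKM at 7 days. Both fell without overlap, at log2 fold changes of -0.66 ± 0.24 (SE, adjusted p = 0.0364 in edgeR) for Tyms and -2.04 ± 0.75 (SE, adjusted p = 0.0413 in edgeR) for Rrm2. Each of these calls was lost in 5 of 18 fits that left out 1 library (libraries 1, 2 or 3 of day 7, and libraries 1 or 3 labelled 14 days for Tyms and 1 or 2 for Rrm2), with adjusted p up to 0.177 for Tyms and 0.139 for Rrm2. Without library 1 of those labelled 14 days the log2 fold change of Tyms was -0.43.

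Rrm1 was not called, with 14.2, 13.2 and 18.9 FPKM in the libraries labelled 14 days, which overlapped 7 days, and 26.2, 23.5, 22.4, 25.3 and 24.1 FPKM at 3 days. The enzymes that handle uracil split the libraries labelled 14 days. Dut had 9.25, 39 and 13.8 FPKM there. Ung had 17.3, 25.4, 17.6, 22.8 and 13.7 FPKM at 1 day, 27.1, 25.7, 27.1, 26.8 and 21 at 3 days, 23.6, 26, 24.9, 20.2 and 25.4 at 7 days and 7.21, 23.2 and 4.22 in the libraries labelled 14 days. In both genes library 2 was high, Dut above every 7-day library and Ung within their range. Libraries 1 and 3 lay below all of the 7-day libraries. Library 2 was the one with high proximal tubule markers. It had the lowest value of its group in 31 of the 41 genes, or 75.6%, against 62.9% of all tested genes. Dut and Ung thus went against most of the set and most tested genes there, and the cause was not tested.

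The 3 chromatin genes all fell. Chaf1a and Chaf1b are subunits of the factor that deposits histones on new DNA. Chaf1a had 6.05, 4.99, 4.9, 5.68 and 3.5 FPKM at 1 day, 9.06, 6.11, 6.12, 7.29 and 5.89 at 3 days, 7.52, 9.08, 7.25, 6.54 and 5.17 at 7 days and 2.81, 2.12 and 3.14 in the libraries labelled 14 days. Chaf1b had 3.22, 2.1, 2.42, 2.78 and 2.98 FPKM at 1 day, 4.32, 3.21, 2.79, 2.91 and 3.42 at 3 days, 4.25, 4.01, 3.13, 4.04 and 2.83 at 7 days and 0.849, 0.787 and 1.07 in the libraries labelled 14 days. Both were below all 15 other libraries. Against 7 days the log2 fold changes were -1.1 ± 0.2 (SE, adjusted p = 0.000681 in edgeR) for Chaf1a and -1.7 ± 0.2 (SE, adjusted p = 2.5e-05 in edgeR) for Chaf1b, with Chaf1b having the smallest adjusted p of the 41. Uhrf1 had 0.18, 0.204 and 0.747 FPKM in the libraries labelled 14 days, with 5.52, 4.09, 4.1, 4.13 and 3.36 FPKM at 3 days, and its log2 fold change against 7 days was -3.33 ± 0.44 (SE, adjusted p = 5.9e-05 in edgeR). Without library 3 of those labelled 14 days, which held most of its reads in that group, the value was -4.17.

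Of the 5 genes of G1/S control 2 fell. Ccne1 is cyclin E1. It had 3.29, 0.612, 1.45, 2.33 and 1.45 FPKM at 1 day, 3.27, 1.48, 2.06, 2.74 and 2.57 at 3 days, 3.13, 4.4, 3.25, 2.22 and 2.52 at 7 days and 0.402, 0.364 and 0.873 in the libraries labelled 14 days. E2f8 had 0, 0.203 and 0.0589 FPKM in the libraries labelled 14 days and 1.08, 2.27, 1.48, 0.795 and 0.966 FPKM at 7 days. Both were separate from 7 days, at log2 fold changes of -2.2 ± 0.46 (SE, adjusted p = 0.00165 in edgeR) for Ccne1 and -3.57 ± 0.87 (SE, adjusted p = 0.00465 in edgeR) for E2f8. The size for E2f8 rests on 4 reads in that group and was -2.96 without library 1 and -5.05 without library 2 of those labelled 14 days. Ccne2 had 3.84, 2.64 and 4 FPKM in the libraries labelled 14 days, overlapping 7 days, and a log2 fold change of -0.17 ± 0.17 (SE, adjusted p = 0.449 in edgeR). The activating factors E2f1 and E2f2 were not called. E2f1 had 2.61, 2.01, 1.81, 2.7 and 1.48 FPKM at 1 day, 4.66, 3.91, 2.75, 3.94 and 1.96 at 3 days, 3.2, 4.43, 2.74, 1.88 and 2.03 at 7 days and 0.987, 0.324 and 2.23 in the libraries labelled 14 days, and a log2 fold change of -1.04 ± 0.41 (SE, adjusted p = 0.0543 in edgeR) against 7 days. E2f2 had one of -0.44 ± 0.35 (SE, adjusted p = 0.343 in edgeR).

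**Figure D4:**
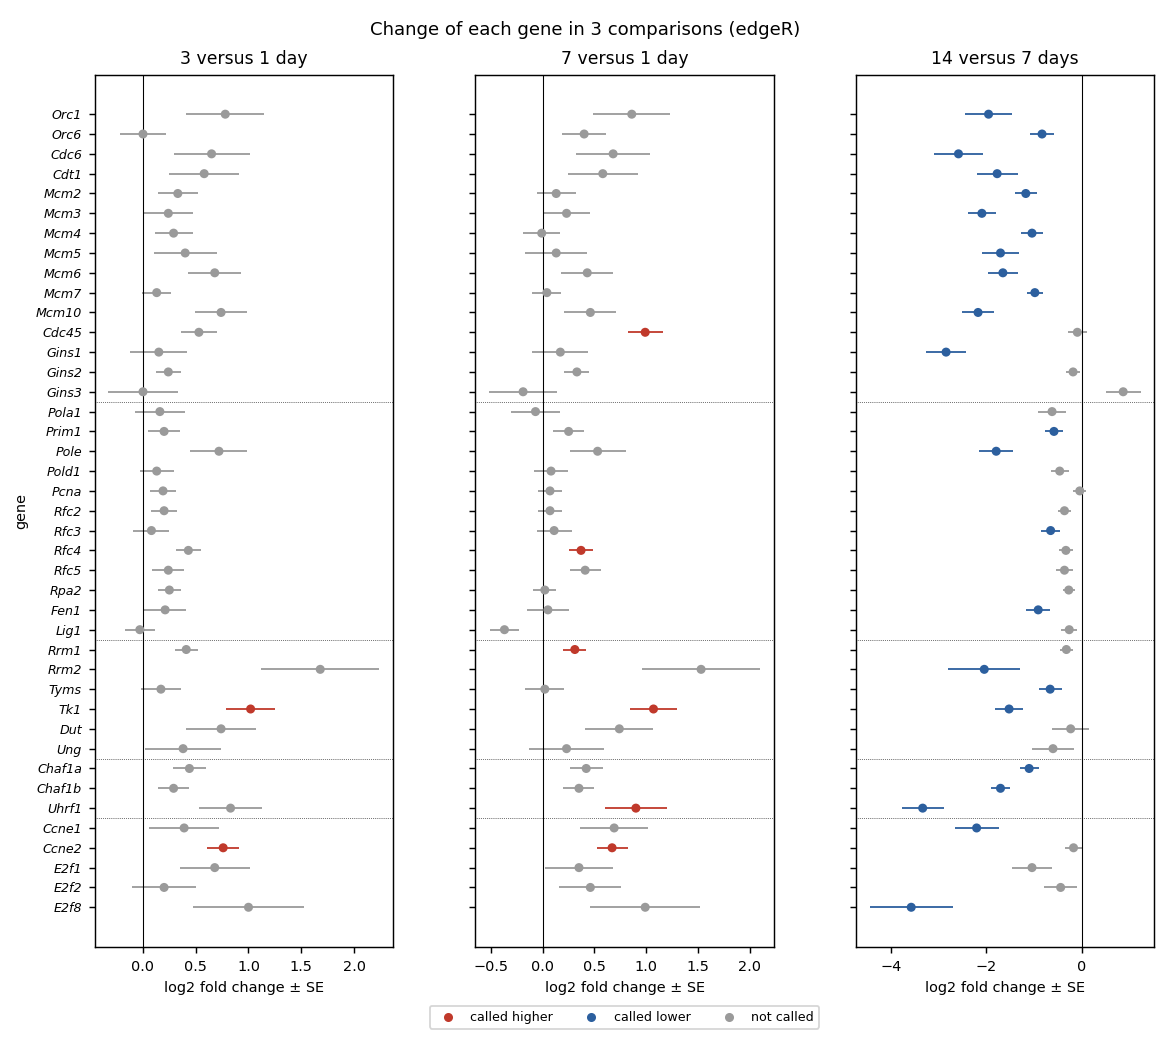
Log2 fold change (horizontal axes, point) and SE (bar) of each of the 41 genes, grouped by role with dotted lines, in 3 comparisons; colour shows whether edgeR called the gene higher (red), lower (blue) or not at all (grey). Called genes number 2 at 3 against 1 day and 6 at 7 against 1 day, all higher, and 24 for the libraries labelled 14 days against 7 days, all lower, and the horizontal scales differ between panels.

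Against 1 day, 20 of 41 genes were lower in the libraries labelled 14 days and 2 were higher, compared with 14.3% and 17.7% of all tested genes. The median log2 fold change was -0.64, against 0.06 over all tested genes. The 3 libraries lay wholly below the 1-day libraries in 19 genes, against 20.9% of tested genes, and wholly above in 0, against 2.65%. The 2 higher were Cdc45 at 0.9 ± 0.2 (SE, adjusted p = 0.00317 in edgeR) and Ccne2 at 0.5 ± 0.17 (SE, adjusted p = 0.0335 in edgeR). For Cdc45 the values overlapped those of 1 day through library 2 alone, and for Ccne2 library 2 lay within the 1-day range as well. The call of Cdc45 held in all 18 fits that left out 1 library. That of Ccne2 was lost in 5 of them (without libraries 3, 4 or 5 of day 1, or 1 or 3 of those labelled 14 days), with adjusted p up to 0.116. It was also lost in 5 of 7 other alternatives, among them limma on log2 FPKM, where the log2 fold change was 0.21 with a pseudocount of 1 (adjusted p = 0.327) and 0.26 with 0.1 (adjusted p = 0.313). Each of the 6 ring subunits was lower than at 1 day, from -0.93 ± 0.16 (SE, adjusted p = 0.000685 in edgeR) for Mcm7 to -1.86 ± 0.3 (SE, adjusted p = 0.000357 in edgeR) for Mcm3. This comparison and that with 7 days share the 3 libraries labelled 14 days. Of the 41 genes, 17 had all 3 of these libraries below all 15 others, compared with 12.5% of tested genes on the FPKM scale.

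Of the 20 genes called lower than at 1 day, 13 kept the call in all 18 fits that left out 1 library and 7 did not. The clamp loader gene Rfc3 lost it in 15 fits, all but those without library 5 of day 1, 4 of day 7 or 1 of those labelled 14 days, and its log2 fold change of -0.54 ± 0.2 (SE, adjusted p = 0.0485 in edgeR) was -0.31 without library 2 of those labelled 14 days. Tyms, at -0.64 ± 0.24 (SE, adjusted p = 0.0467 in edgeR), lost it in 13, all but those without library 3 of day 3, 2, 4 or 5 of day 7 or 2 of those labelled 14 days. Cdt1, at -1.19 ± 0.43 (SE, adjusted p = 0.0427 in edgeR), lost it in 9 (libraries 1 to 4 of day 1, 2 of day 3, 3 and 5 of day 7, and 2 and 3 of those labelled 14 days), and without library 2 of the last group its log2 fold change was -0.76.

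E2f8, at -2.58 ± 0.9 (SE, adjusted p = 0.0369 in edgeR) against 1 day, lost the call in 4 such fits (libraries 1 and 4 of day 1, and 1 and 3 of those labelled 14 days), and its log2 fold change was -4.07 without library 2 of those labelled 14 days. Cdc6 and Ccne1 lost theirs without library 1 of those labelled 14 days, at adjusted p of 0.0521 and 0.0785, and Fen1 without library 3, at 0.0643. Without that library 3 the log2 fold change of Cdc6 was -3.26, against -1.9 ± 0.51 (SE, adjusted p = 0.0105 in edgeR) with it.

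The rest of the replication machinery was read from a second list. Of 47 tested other replication factors 0 were called in either direction at 3 against 1 day, with a median log2 fold change of 0.08, and the smallest p were those of Dscc1 (log2 fold change 0.8, edgeR adjusted p = 0.14) and Ticrr (log2 fold change 0.93, edgeR adjusted p = 0.162). At 7 days 8 of 47 were higher and 3 lower than at 1 day, or 17% and 6.38%, where 12.3% and 13.3% of all tested genes were called, so the higher count lies near that of all genes. Among those called, Clspn, a checkpoint adaptor at the fork, had a log2 fold change of 1.43 ± 0.42 (SE, adjusted p = 0.0197 in edgeR), Pole2, the second subunit of polymerase epsilon, 1.06 ± 0.3 (SE, adjusted p = 0.0172 in edgeR) and Asf1b, a histone chaperone, 1.06 ± 0.32 (SE, adjusted p = 0.0219 in edgeR), while Rrm2b, the p53-controlled alternative to Rrm2, had -1.16 ± 0.23 (SE, adjusted p = 0.00178 in edgeR). Topbp1 and Orc3 were the other 2 that fell, at -0.58 and -0.46. In the libraries labelled 14 days 17 fell and 5 rose against 7 days, or 36.2% and 10.6%, compared with 16.9% and 21.4% of all tested genes, with Clspn at -5.22 ± 0.83 (SE, adjusted p = 0.000235 in edgeR), Ticrr, which brings Cdc45 to origins, at -3.05 and Asf1b at -2.98 on the lower side, and Rrm2b at 1.03 ± 0.26 (SE, adjusted p = 0.0055 in edgeR) among the higher. Rrm2 and Rrm2b, alternative small subunits of the same reductase, thus had opposite fitted signs in both comparisons, though Rrm2 itself was called only in the second.

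Of 30 tested G1/S regulators 2, or 6.67%, were higher at 3 days than at 1 day, against 1.16% of all tested genes. They were Ccna2, cyclin A2, at 1.14 ± 0.27 (SE, adjusted p = 0.0397 in edgeR) and Ccnd3, a D-type cyclin, at 0.57 ± 0.12 (SE, adjusted p = 0.0272 in edgeR). At 7 against 1 day 8 rose and 5 fell, or 26.7% and 16.7%, against 12.3% and 13.3% of all tested genes, led by Mycn at 2.32 and the kinase inhibitor Cdkn2c at 1.51 upward and by Cdk6 at -0.84 and the retinoblastoma relative Rbl1 at -0.81 downward. Between 7 and 3 days 1 of 30, or 3.33%, was called lower, against 0.331% of all tested genes. It was the retinoblastoma gene Rb1, at -0.46 ± 0.1 (SE, adjusted p = 0.0472 in edgeR). In the libraries labelled 14 days 13 fell and 5 rose against 7 days, or 43.3% and 16.7% of the list. Of all tested genes 16.9% were called lower and 21.4% higher. Ccna2 had a log2 fold change of -3.47 ± 0.4 (SE, adjusted p = 2.01e-05 in edgeR), the repressor E2f7 -3.43 and Myc -2.77 ± 0.24 (SE, adjusted p = 2.69e-06 in edgeR), while the kinase inhibitors Cdkn2b and Cdkn1b were higher at 2.29 and 1.02. Of 23 genes of replication stress and recombination repair 2, or 8.7%, rose at 3 against 1 day, beside 1.16% of all tested genes. They were Fancd2 at 1.09 ± 0.21 (SE, adjusted p = 0.0143 in edgeR) and Fanci at 0.78 ± 0.19 (SE, adjusted p = 0.0398 in edgeR). Of the same 23 genes, 14 fell in the libraries labelled 14 days against 7 days, with 1 higher. These were 60.9% and 4.35% of the list, beside 16.9% and 21.4% of all tested genes.

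The medians of the mitotic genes lay further from 0 than those of the replication genes, and between 7 and 3 days no gene of either list was called. At 3 against 1 day 20 of 29 genes of mitosis and the spindle rose and 0 fell, with a median log2 fold change of 1.37, against 0.33 for the 41 genes. At 7 against 1 day 24 rose with a median of 1.59, against 0.35, and in the libraries labelled 14 days 28 fell against 7 days with a median of -2.88, against -0.91. Their summed level was 44.3 to 77.4 FPKM at 1 day, 124 to 154 FPKM at 3 days, 125 to 197 FPKM at 7 days and 17 to 23.8 FPKM in the libraries labelled 14 days. Mki67, whose product marks cycling cells, had a log2 fold change of 1.53 ± 0.26 (SE, adjusted p = 0.00689 in edgeR) at 3 against 1 day and the mitotic kinase Plk1 1.84 ± 0.24 (SE, adjusted p = 0.00131 in edgeR). Without the libraries labelled 14 days, 25 mitotic genes were higher at 3 days and 26 at 7 days than at 1 day. The difference between the lists was not tested.

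**Figure D5:**
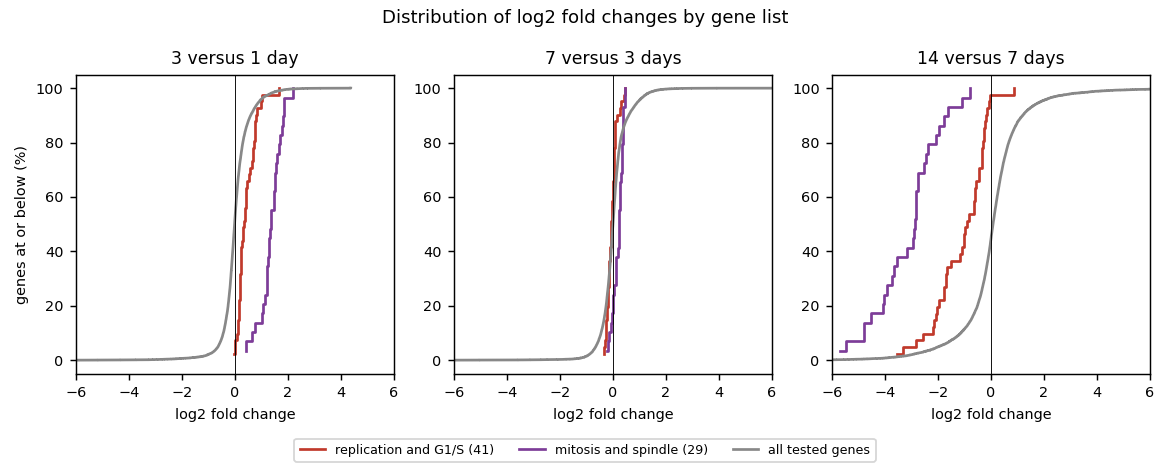
Cumulative share of genes (vertical axis, %) at or below each log2 fold change (horizontal axis) for the 41 replication and G1/S genes (red), 29 genes of mitosis and the spindle (purple) and all tested genes (grey) in 3 comparisons. The red curve lies right of the grey at 3 against 1 day (medians 0.33 and -0.01). At 7 against 3 days the red and grey medians are close (-0.06 and 0), and the 41 values run from -0.34 to 0.46. For the libraries labelled 14 days against 7 days the red curve lies left of the grey (medians -0.91 and 0.07). The purple curve lies further out in the first and last panel.

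Within a time, the highest values of the 41 genes gathered in a single library, which in every group but that of day 1 was not the one where mitotic genes peaked most often. At 7 days library 2 held the highest of the 5 FPKM values in 32 of the 41 genes, or 78.0%, against 23.6% of all tested genes, but in 6 of 29 mitotic genes, of which 17 peaked in library 1. At 3 days library 1 was highest in 27 of 41, or 65.9%, against 31.9% of all tested genes, but in 4 of 29 mitotic genes, of which 17 peaked in library 3. At 1 day library 1 was highest in 19 of 41 and in 18 of 29 mitotic genes, against 14.4% of all tested genes. In the libraries labelled 14 days library 3 was highest in 28 of 41, against 48.5% of all tested genes, and library 2 lowest in 31 of 41, against 62.9%. Of the 29 mitotic genes 13 peaked in library 2 of that group and 10 in library 3. These counts describe single libraries, and genes within a library are not independent, so no test was made.

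Markers of several but not all cell types had positive medians in the same comparisons as the replication genes. At 3 against 1 day the median log2 fold change was 1.09 for proximal tubule markers, 0.79 for T and NK cell markers, 0.67 for monocyte and macrophage markers and 0.41 for fibroblast markers. Called higher were 0 of 18, 1 of 13, 0 of 16 and 0 of 10 in that order, beside 2 of the 41 replication genes, and 0 were lower. The median was also positive for B and plasma cell markers (0.88) and urothelium markers (0.16). It was negative for markers of injured tubule (-0.12), endothelium (-0.43) and adipocytes (-1.71). Without the libraries labelled 14 days 4 proximal tubule, 1 T and NK cell, 0 monocyte and macrophage and 2 fibroblast markers were called higher, beside 6 of the 41.

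By summed level, both the 41 genes and the monocyte and macrophage markers lay higher in every 3-day library than in every 1-day library. So did the lists of mitosis (124 to 154 against 44.3 to 77.4 FPKM) and of repair (93.4 to 109 against 77.1 to 89.9 FPKM). The monocyte and macrophage sums were 816 to 1480 FPKM at 3 days, against 390.0 to 814 FPKM at 1 day. Those of the proximal tubule were 1540.0 to 6080.0 FPKM at 3 days, against 747 to 1870.0 FPKM at 1 day, with overlap. At 7 against 1 day 12 of 16 monocyte and macrophage markers, 12 of 13 T and NK cell markers and 8 of 10 fibroblast markers rose, with 0 lower in each list, while 2 of 18 proximal tubule markers rose and 1 fell. Summed T and NK cell markers were 21.3 to 30.4 FPKM at 1 day, 26.8 to 69 FPKM at 3 days, 64.7 to 244 FPKM at 7 days and 10.1 to 24.7 FPKM in the libraries labelled 14 days. The part of these cells in the levels of the replication genes was not tested.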

How the data were processed

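Per the labels' protocols, poly(A) RNA of rat renal parenchyma was made into cDNA with random hexamers. Per the submitters' processing notes, fastp 0.19.7 and HISAT2 2.0.4 were used for trimming and alignment. The counter, strand setting, annotation and build were not given in the sources used here. Antisense or overlapping genes may therefore share reads. The deposited table holds whole counts for each gene, per the file headers, and the authors' FPKM. These FPKM equal the count over a single length per gene and the library's column total (over 8250 genes whose counts reached 50 in every library, implied lengths differed by at most a ratio of 1.00002).

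Libraries were grouped by their labels alone, and every library carries the same batch label. Counts were filtered with filterByExpr (minimum count 10, minimum total 15), TMM-scaled and tested by quasi-likelihood in edgeR 4.0.16 under R 4.3.3, with group as the sole term and all 18 libraries together. A call needed a Benjamini-Hochberg adjusted p below 0.05 over the 14511 genes tested. SE is the log2 fold change over the square root of F, and intervals are 95%. DESeq2 1.42.0, RLE factors, no filter, limma 3.58.1 on log2(FPKM + 1) or log2(FPKM + 0.1), a replicate block, fits of 2 groups and fits leaving out libraries were alternatives. The scripts were tested on simulated data. The 41 genes, the 14 lists and the words searched were chosen with earlier results of these data known. Values in every library are given for genes called in a comparison and for the 20 with the smallest p at 3 against 1 day. Of the other lists, up to 3 called genes in each direction are named by size of change, or the 2 of smallest p where none was called; Mki67, Plk1 and Cdk1 were named after their values were seen.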

Additional observations from a re-analysis of the deposited data

Results flagged for a closer look

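Of 123 sets of 5 libraries (41 genes at 1, 3 and 7 days) 1 held a library far from the other 4. Ung stood at 21.0 FPKM in library 5 of day 3, against 25.7 to 27.1 FPKM in the other libraries of that day. Chance marks about 1 in 20 such sets, and no comparison of Ung was called.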

How the results depend on the processing

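None of the called genes among the 41 changed sign under any alternative run, and the calls lost without a single library, namely 1 of 2 at 3 against 1 day, 3 of 6 at 7 against 1 day, 5 of 24 against 7 days and 8 of 22 against 1 day for the libraries labelled 14 days, are named beside the results. At 3 against 1 day 2 genes were called, against 6 with DESeq2, 7 in a fit of the 2 groups alone, 6 without the libraries labelled 14 days, 7 without these and library 5 of day 1 (chosen after seeing the data), and 1 to 5 when a single library was left out, the 5 being without library 2 of those labelled 14 days. At 7 against 1 day 6 were called, against 10 with DESeq2, 3 without the count filter, 11 without the libraries labelled 14 days and 3 to 9 with a single library left out. Between 7 and 3 days 0 were called under all. For the libraries labelled 14 days, 24 were called against 7 days (20 to 36 over the alternatives, 22 to 26 with a library left out), and 22 against 1 day (10 in a fit of the 2 groups alone, 17 to 25 with a library left out).

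Whether replicate numbers pair the libraries was not settled by correlation. The deviations of same-numbered libraries from their group means correlated at a median of 0.035 (-0.45 to 0.43, 24 pairs). Those of libraries with other numbers correlated at a median of -0.015 (-0.65 to 0.54, 96 pairs). A library correlated best with its own number in 15 of 48 cases. The 2 ranges overlap, so these values neither show nor exclude pairing. With the number as a replicate block 1 gene was called at 3 against 1 day, 5 at 7 against 1 day, 0 at 7 against 3 days, and 25 and 19 for the libraries labelled 14 days against 7 days and 1 day. Over all tested genes, calls at 3 against 1 day numbered 330, against 951 with DESeq2, 171 without the filter, 139 with the block, 1203 in the 2 groups alone, 1463 without the libraries labelled 14 days and 2016 without library 5 of day 1 as well. At 7 against 3 days they numbered 152, against 909, 64, 39, 981, 1108 and 1772 in the same order. At 7 against 1 day they numbered 3713, and 5841 in the last of these fits. The libraries labelled 14 days gave 5560 calls against 7 days and 4646 against 1 day, and 3153 and 1628 in fits of 2 groups. Library depth limits the scarce genes most, since Rrm2, E2f8, Orc1 and Cdc6 had fewer than 20 reads in several libraries, and their fold changes depend on few reads. Other falls in the libraries labelled 14 days also rest on few reads. Among these genes, Gins1 had 1, 4 and 4 reads there, Ccne1 5, 4 and 11, and Mcm10 6, 13 and 14. Uhrf1 had 5, 5 and 21 and Chaf1b 11, 9 and 14.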

Other observations

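The CCAAT word, a promoter element of many cell cycle genes, was in 63.6% of the 33 windows of replication and G1/S genes and in 66.7% of the 24 windows of mitotic genes, against 38.5% of all tested genes, on both strands together. Among the genes with a window, an E2F word was in 11 of 19, or 57.9%, of those called lower in the libraries labelled 14 days than at 7 days, and in 5 of 14, or 35.7%, of those not called. These shares were not tested.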
